A study of Homo sapiens with 2 samples.

Results

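Mitochondria form a network that is remodelled by fusion and fission. Dynamin-related GTPases drive both: the mitofusins MFN1 and MFN2 join outer membranes, OPA1 joins inner membranes and shapes cristae, and DRP1, the product of DNM1L, assembles around the organelle and constricts it. DRP1 is recruited by the outer membrane proteins MFF, MIEF1 and FIS1, and the inner membrane proteases OMA1 and YME1L1 cut the long forms of OPA1 into short ones. Here the transcripts of these 9 genes were examined among the 54261 genes listed in the count table of RKO cells with reduced SRSF2, a splicing factor of the serine/arginine-rich family. The 9 genes were chosen by name. OPA1 gave the list its start because inclusion of one of its exons had been reported as changed in the same libraries, so everything given for it is a description and not a test. The junction reads behind that report were not used here.

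The cells were RKO, an established human colon carcinoma line, transfected with the study's negative control siRNA (si-NC, the control library) or with its siRNA targeting SRSF2 (si-SRSF2, the knockdown library). Each transfection gave 1 RNA-seq library, so every difference below compares a pair of libraries without replication, and how much separate transfections vary is not known. The knockdown rests on 1 siRNA in 1 cell line, and the labels give no time between transfection and RNA extraction. The control library had 19931360 counts and the knockdown library 14512802.

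In the canonical OPA1 transcript, OPA1-202, 4 exons lie within introns of at least 1 other coding transcript in GENCODE release 44. OPA1 spans chr3:193593144-193697811 on the plus strand of GRCh38 and its canonical transcript has 31 exons. The 54 bp exon reported as changed is exon 5, at chr3:193617784-193617837, known in the literature as exon 4b. It is coding and its length is a multiple of 3, so that inclusion adds 18 residues and keeps the frame. Exon 4, of 108 bp at chr3:193617178-193617285, lies 498 bp upstream of it, and exon 7, of 111 bp at chr3:193626092-193626202, follows further downstream. Exon 7 is known as exon 5b and is background to the proteases examined here, since it carries a cleavage site used by YME1L1. The fourth, exon 13, is skipped in 1 coding transcript only. The sequences of exons 4, 5 and 7 are shown because coding transcripts of OPA1 differ in which of them they hold. Capitals mark the exon, and lower case the 20 intron bases before it and the 10 after it.
Exon 4: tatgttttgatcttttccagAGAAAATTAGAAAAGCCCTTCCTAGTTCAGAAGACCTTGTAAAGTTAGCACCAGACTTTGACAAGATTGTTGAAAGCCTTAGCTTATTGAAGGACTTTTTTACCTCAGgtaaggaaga
Exon 5: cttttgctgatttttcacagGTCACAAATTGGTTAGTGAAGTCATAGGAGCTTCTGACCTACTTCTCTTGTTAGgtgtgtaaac
Exon 7: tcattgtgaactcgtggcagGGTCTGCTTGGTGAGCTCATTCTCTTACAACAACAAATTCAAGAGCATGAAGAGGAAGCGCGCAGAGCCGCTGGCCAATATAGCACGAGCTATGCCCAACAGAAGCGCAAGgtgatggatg

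**Figure D1:**
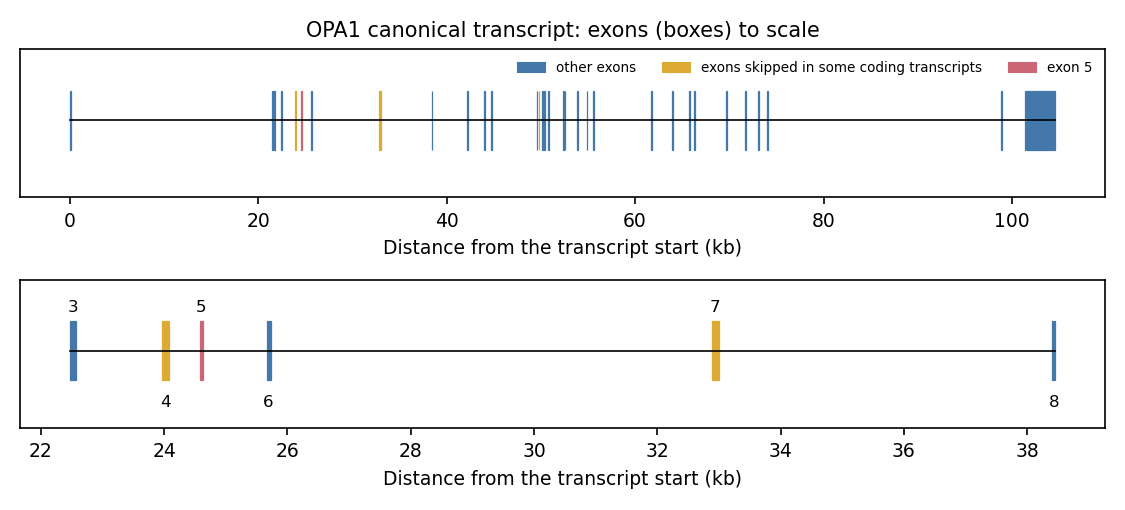
Exons of the canonical OPA1 transcript drawn to scale as boxes against the distance from the transcript start in kb, with the whole transcript above and exons 3 to 8 below. Exon 5, of 54 bp, sits between exon 4 and exon 6, and is one of the exons that some coding transcripts skip.

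All 3 exons begin after an intron ending in AG and are followed by GT. Of the 14 coding transcripts of OPA1 in GENCODE, 4 hold exon 5 and 7 skip it, 8 hold exon 4 and 3 skip it, and 4 hold exon 7 and 6 skip it. The transcript with all 3 exons encodes 1015 residues and the one without any of them 924. The other annotated OPA1 transcripts comprised 12 labelled for nonsense-mediated decay and 6 with a retained intron. SRSF2 is known to bind short motifs of the form CCNG and GGNG, and these were searched on the transcribed strand, overlaps allowed. Exon 5 held 1, a GGNG at bases 27 to 30 counted from its first base, shown in capitals.
Exon 5: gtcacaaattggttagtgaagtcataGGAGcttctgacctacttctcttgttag
Exons 4 and 7 also held 1 each. Of 1086 internal coding exons of 54 bp in canonical transcripts, 87.5% held at least 1 match and the median was 3, which exon 5 lay below. A match is a description of the sequence and not a binding site.

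The study's own RT-PCR primers for OPA1 were placed on these exons to show which isoforms they separate. The forward primer lies in exon 3 and the reverse primer in exon 6.
OPA1-F: gatcagtggaaagatatgataccg
OPA1-R: atgcttgtcactttcagatcca
By sequence the product is 312 bp with exons 4 and 5, 258 bp without exon 5, 204 bp without exon 4 and 150 bp without both. Exon 7 lies outside the product. The gene counts below cannot separate these isoforms: exon 5 makes up 0.840% of the 6429 bp transcript, and reads of every isoform enter the same total.

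SRSF2 itself (ENSG00000161547.17, chromosome 17) had 1964 counts in the control and 713 in the knockdown library, which left 49.9% of the control level. Here CPM are counts per 1000000 counts of the library, after scaling by the TMM method, and each log2 ratio sets the knockdown over the control library after adding 0.5 CPM to both. For SRSF2 it was -0.997 (-1.13 to -0.88). MFSD11, on the other strand, shares 823 exonic bases with SRSF2 and had 225 and 119 counts, and whether the counting used strand is not stated, so the SRSF2 level carries that uncertainty. Intervals are 95% Clopper-Pearson intervals of the ratio and cover counting error only. Over the 12620 genes whose mean reached 1 CPM the median log2 ratio was -0.02, and the middle 50% of genes lay between -0.19 and 0.15. As markers of the line, KRT8, KRT18, EPCAM and CDX2 had a mean above 5 CPM, whereas CDH1 (10 and 6 counts) and VIL1 (1 and 1) were close to the limit of 3 counts or under it. The 6 epithelial markers summed to 79.3 CPM in the control and 96.9 in the knockdown library, and most of the difference was KRT8, with 27.4 and 42.6 CPM. The 3 leukocyte, 3 fibroblast and 3 endothelial markers each summed to at most 1.10 CPM, and CD3E, DCN and PECAM1 were at 0. The part of these marker levels in the results was not tested.

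OPA1, the inner membrane fusion GTPase, had nearly the same total in both libraries. It had 3658 counts in the control and 2824 in the knockdown library, or 184 and 195 CPM, a log2 ratio of 0.08 (interval 0.01 to 0.16). The knockdown level was thus 1.06-fold the control level, within the middle 50% of all genes. RNA of a whole culture was measured, so fewer cells with a transcript and less of it per cell cannot be told apart here.

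The 2 mitofusins differed from each other. MFN1 (ENSG00000171109.19, chr3:179347709-179394936, plus strand) had 1801 counts in the control and 1687 in the knockdown library, or 90.4 and 116 CPM. Its log2 ratio was 0.36 (0.27 to 0.46), a 1.28-fold higher level after knockdown, at the 89.9th percentile of all genes tested. MFN2 (ENSG00000116688.18, chr1:11980181-12015211, plus strand) had 1591 and 1170 counts, or 79.8 and 80.6 CPM, a log2 ratio of 0.01 (-0.10 to 0.12). A log2 ratio of 0.32 in either direction was taken as the smallest size to count. MFN1 alone of the 9 genes was that much higher, as were 11.8% of all genes tested. None of the 9 was that much lower, whereas 13.3% of all genes were. If only genes averaging 5 CPM or more were considered, as all 9 did, the shares were 8.26% higher and 11.3% lower, and 1 gene of 9 is too few to be told from either share.

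DNM1L, which encodes the fission GTPase DRP1, was lower in the knockdown library. The gene (ENSG00000087470.21, chr12:32679200-32745650, plus strand) had 3480 counts in the control and 2257 in the knockdown library, or 175 and 156 CPM. The log2 ratio was -0.17 (-0.24 to -0.09), so the knockdown level was 0.891 times the control level. This lay inside the range of the middle 50% of genes.

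The receptors that recruit DRP1 to the outer membrane did not move together. MIEF1, which binds DRP1 and tunes its assembly (ENSG00000100335.15, chr22:39499432-39518132, plus strand), had 1737 counts in the control and 1093 in the knockdown library, or 87.2 and 75.3 CPM. Its log2 ratio of -0.21 (-0.32 to -0.10) was the lowest of the 9. MFF, the main fission receptor in many cell types (ENSG00000168958.21, chr2:227325151-227357833, plus strand), had 1699 and 1241 counts, or 85.2 and 85.5 CPM. With a log2 ratio of 0.00 (-0.10 to 0.11), it was the member nearest to no difference. FIS1 (ENSG00000214253.9, chr7:101239458-101252316, minus strand) had 1060 and 798 counts, or 53.2 and 55.0 CPM, a log2 ratio of 0.05 (-0.09 to 0.18).

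Both OPA1 proteases had log2 ratios close to that of OPA1. YME1L1, an ATP-dependent protease of the inner membrane (ENSG00000136758.20, chr10:27110111-27155266, minus strand), had 3642 counts in the control and 2791 in the knockdown library, or 183 and 192 CPM. Its log2 ratio was 0.07 (0.00 to 0.15). OMA1, a stress-activated metalloprotease (ENSG00000162600.12, chr1:58415384-58546802, minus strand), had 278 and 214 counts, or 13.9 and 14.7 CPM, a log2 ratio of 0.08 (-0.18 to 0.34). OMA1 was the least counted of the 9 and had the widest interval.

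**Figure D2:**
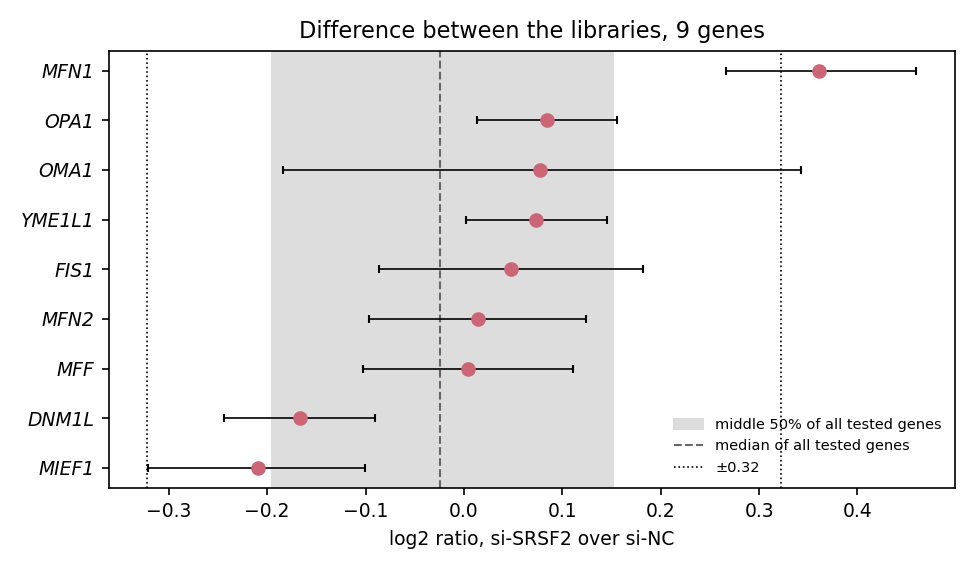
Log2 ratio of the knockdown over the control library for the 9 genes, with 95% Clopper-Pearson intervals for counting error as bars (1 library per group). The grey band holds the middle 50% of all 12620 tested genes, from -0.19 to 0.15, the dashed line is their median and dotted lines are at 0.32 in either direction. MFN1 lies past the dotted line and MIEF1 is the lowest.

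All 9 genes passed the filter of 1 CPM, on 214 to 3658 counts per library. Their median log2 ratio was 0.05, beside -0.02 for all genes tested, with 7 of the 9 above 0 and 2 below, where 46.2% of all genes lay above 0. None reached 1.5-fold in either direction, where 7.69% of all genes lay, or 2-fold, where 1.35% lay. Both shares were taken over genes from 1 CPM up and were not recomputed at 5 CPM, which all 9 genes reached. The counting interval lay beyond 0 for 5 of the 9 (OPA1, MFN1, YME1L1, DNM1L and MIEF1), against 47.6% of all genes. At these depths counting error is small, so this count says little about the conditions.

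**Figure D3:**
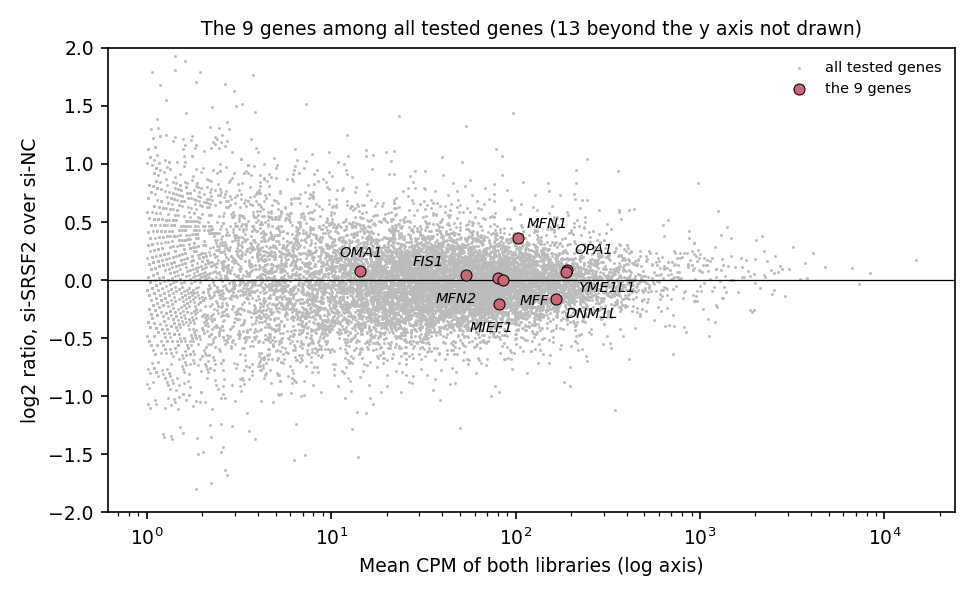
Log2 ratio of the knockdown over the control library against the mean CPM of both libraries on a log axis, with all tested genes in grey and the 9 genes in red. The 9 genes lie in the body of the distribution, and 13 grey genes beyond 2 in either direction are not drawn.

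Ratios between members within a library do not depend on the scaling of the libraries, and were compared with 95% conditional intervals of the odds ratio, which again cover counting error only. These pairs were chosen after the counts were seen. OPA1 had 1.004 counts per YME1L1 count in the control and 1.012 in the knockdown library, a ratio of ratios of 1.007 (0.939 to 1.08). Per OMA1 count, OPA1 had 13.2 counts in both libraries, a ratio of ratios of 1.003 (0.830 to 1.21). Counts of the GTPase relative to its proteases thus differed by less than counting error.

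MFN1 had 1.13 counts per MFN2 count in the control and 1.44 in the knockdown library, a ratio of ratios of 1.27 (1.15 to 1.41). OPA1 per DNM1L was 1.05 in the control and 1.251 in the knockdown library, a ratio of ratios of 1.19 (1.11 to 1.28). MFN1 per DNM1L was 0.518 and 0.747, with a ratio of ratios of 1.44 (1.33 to 1.57). The fusion pair OPA1 and MFN1 went the other way, with 2.03 OPA1 counts per MFN1 count in the control and 1.67 in the knockdown library, a ratio of ratios of 0.824 (0.758 to 0.896). OPA1 per MIEF1 had a ratio of ratios of 1.23 (1.12 to 1.34). The intervals of 4 further fusion and fission pairs included 1, and the ratio of ratios was 1.06 (0.967 to 1.16) for OPA1 per MFF, 1.03 (0.923 to 1.14) for OPA1 per FIS1, 1.007 (0.905 to 1.12) for MFN2 per MFF and 0.977 (0.866 to 1.10) for MFN2 per FIS1. Over all 36 pairs the interval lay beyond 1 in 19, each with MFN1, DNM1L or MIEF1 as a partner, and in 0 of the 15 pairs among the other 6 genes. These 3 genes had the ratios farthest from 0, so that this pattern largely follows from singling them out, and there is no share over other genes to set it against.

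To compare levels between genes, counts were divided by the length of each canonical transcript and scaled to the same sum in both libraries over all genes with a length (TPM). In the control library, FIS1 had the highest level with 153 TPM (exact Poisson interval 144 to 162), followed by MFF with 111 and YME1L1 with 109, whose intervals overlapped. DNM1L had 96.5 TPM and OPA1 71.2. MFN2 with 45.2 and MFN1 with 43.3 overlapped, MIEF1 had 38.2 and OMA1 was lowest with 18.7 (16.6 to 21.0).

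In the knockdown library the order with these lengths was the same except for 2 neighbouring pairs. YME1L1 had 113 TPM and MFF 110, again with overlapping intervals. MFN1 had 54.9 TPM (52.3 to 57.6) and MFN2 45.0 (42.5 to 47.7), and these intervals did not overlap. With these lengths MFN1 made up 48.9% of the mitofusin TPM in the control and 54.9% in the knockdown library. Together OPA1, MFN1 and MFN2 summed to 160 TPM in the control and 174 in the knockdown library, while DNM1L and its 3 receptors summed to 398 and 382. The fusion sum was 0.401 times the fission sum in the control and 0.456 times in the knockdown library. The largest parts of this difference were MFN1, with 43.3 and 54.9 TPM, and DNM1L, with 96.5 and 84.8. OPA1 had 71.2 and 74.5 TPM and MIEF1 38.2 and 32.6, while the log2 ratio intervals of MFN2, MFF and FIS1 included 0. No interval was computed for the sums.

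The order depended on the transcript length used. With the length of all annotated exons of a gene, 7 of the 9 genes took another rank in the control and 6 in the knockdown library. FIS1 remained first and OMA1 last in both libraries. MFN1 then had 67.6 TPM in the control and MFN2 34.7, so that MFN1 was above MFN2 in both libraries and the exchange of ranks between the mitofusins was no longer seen. DNM1L instead lay above OPA1 and MFN1 in the control, with 96.4 TPM beside 90.3 and 67.6, and below OPA1 in the knockdown library, with 84.9 TPM beside 94.7, where MFN1 with 86.0 was too close to DNM1L to be ordered. The share of MFN1 in the mitofusin TPM was then 66.1% in the control and 71.3% in the knockdown library, and the fusion sum was 0.565 and 0.663 times the fission sum.

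**Figure D4:**
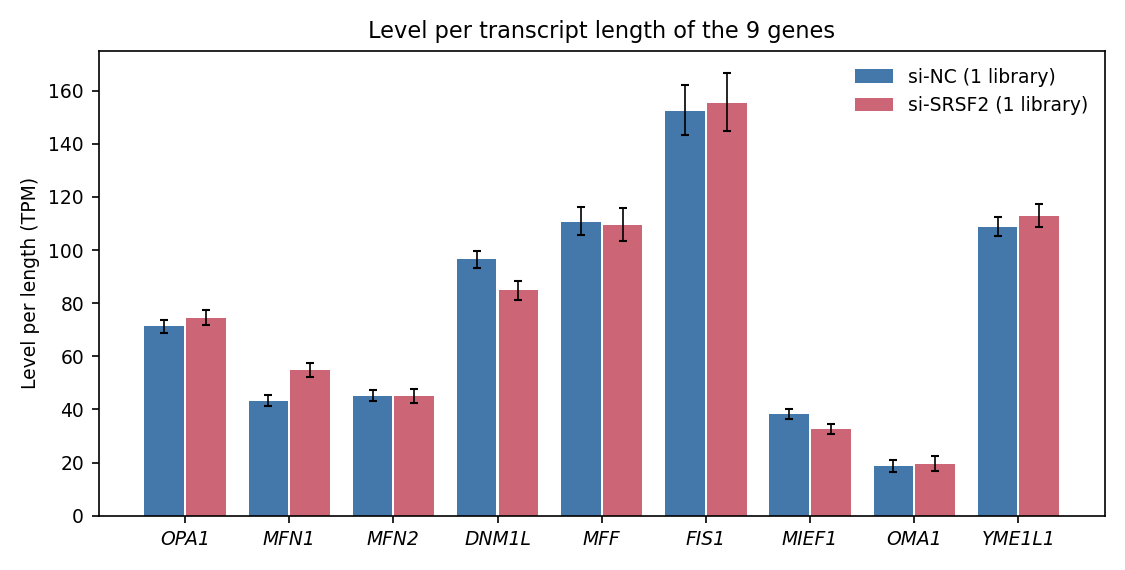
Level per transcript length in TPM of the 9 genes in si-NC (blue) and si-SRSF2 (red), 1 library each, with exact Poisson intervals as bars. FIS1 was highest and OMA1 lowest in both libraries, and MFN1 had 43.3 TPM in the control and 54.9 in the knockdown library.

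Overlapping genes bear on how well these totals can be counted. YARS2, on the other strand from DNM1L, had 894 and 672 counts and shared 0 exonic bases with it. MASTL, on the other strand from YME1L1, had 1351 counts in the control and 806 in the knockdown library and shared 443 exonic bases. How the counting used strand is not stated, so reads in these bases cannot be assigned with certainty. No other gene with at least 10 counts overlapped a member.

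Repeated sequence bears on them too. The share of sampled 31-mers of the canonical transcript that occur elsewhere on the chromosomes was 0% for OPA1, MFN2, FIS1 and OMA1. It was 3.18% for MIEF1, 10.1% for YME1L1, 10.5% for DNM1L, 15.6% for MFN1 and 20% for MFF. Reads there can align to more than 1 place, and their part in the MFN1, DNM1L and MIEF1 differences was not tested.

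The guide strand of the siRNA is shown with its seed, bases 2 to 8, in capitals, since an siRNA can pair with other transcripts through its seed.
si-SRSF2 guide: aUCGCGACcuggauuugga
The matching site, GTCGCGA, was in the canonical transcript of none of the 9 genes. Of 10888 tested genes whose 3' UTR was examined, 28 (0.257%) held it there.

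The members also differ in how many coding exons the annotation allows to be skipped. By the same definition as for OPA1, DNM1L had 6 such exons, 4 of a length that is a multiple of 3, and MFF had 2, both a multiple of 3. YME1L1 had 3, MFN1 and FIS1 had 2 each, MFN2 had 1, and MIEF1 and OMA1 had 0. Gene totals give no inclusion level for any of them.

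The wider machinery was described with a list of 77 genes in 9 roles, of which 75 passed the filter. BNIP3, a mitophagy receptor that did not pass, had 0 counts in both libraries (named after its values were seen). The median log2 ratio of the 75 was 0.00, beside -0.02 for all genes. Of the 75, 36 lay above 0 and 39 below, where 46.2% of all genes lay above 0. At a log2 ratio of 0.32, 5 were higher and 7 lower, or 6.67% and 9.33%, against the 11.8% and 13.3% of all genes given above. At least 1.5-fold apart were 5, or 6.67%, beside 7.69% of all genes: MIGA1, RHOT1, PINK1 and PPP3CA were lower and TOMM22 higher. At a log2 ratio of 0.32 the shares were thus not above those of all genes. Among genes averaging 5 CPM or more, as all 75 did, 8.26% were that much higher and 11.3% lower, again not exceeded. At 1.5-fold no share was computed at 5 CPM, so whether the 6.67% exceeds that of genes of like depth is not known.

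The 4 helpers of outer membrane fusion had log2 ratios from -0.80 to -0.25, with a median of -0.38. MIGA1, listed under its older symbol FAM73A, encodes a mitoguardin that promotes fusion on the outer membrane. It had 1542 counts in the control and 641 in the knockdown library, or 77.4 and 44.2 CPM, a log2 ratio of -0.80 (-0.94 to -0.68). Its relative MIGA2 had 1357 and 831 counts, a log2 ratio of -0.25 (-0.38 to -0.12). PLD6, a mitochondrial phospholipase that mitoguardins bind, had 471 and 259 (-0.40, -0.63 to -0.18), and MSTO1, a fusion factor, 240 and 134 (-0.37, -0.70 to -0.07). The intervals of all 4 lay below 0, where 47.6% of all genes had an interval beyond 0 in either direction. Lower by at least 0.32 were 3 of the 4, beside 13.3% of all genes and 11.3% of those averaging 5 CPM or more. With 4 genes in a list chosen with earlier results known, these counts are a description. PLD6 and MSTO1 were named after their values were seen.

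Other roles held single genes far from their group. RHOT1, which encodes the Miro GTPase that couples mitochondria to motors, had 1728 counts in the control and 782 in the knockdown library, a log2 ratio of -0.68 (-0.81 to -0.56), whereas the transport group had a median of -0.01 and a highest value of 0.12, for KIF5B. PINK1, the kinase that starts mitophagy, had 787 and 362 counts, a log2 ratio of -0.65 (-0.85 to -0.48). Its antisense gene PINK1-AS, which shares 1907 exonic bases with it, had 238 and 112, so PINK1 is uncertain without the strand mode of the counting. Among the mitophagy receptors BCL2L13 was highest with 0.10. PPP3CA, a catalytic subunit of calcineurin, the phosphatase that activates DRP1, had 410 and 194 counts, a log2 ratio of -0.60 (-0.88 to -0.37). The 14 genes that modify DRP1 had a median of 0.05, with 8 above 0 and 6 below, where 46.2% of all genes lay above 0. Lower by at least 0.32 were 2, or 14.3%, beside 13.3% of all genes and 11.3% of those averaging 5 CPM or more. That much higher were 0, beside 11.8% of all genes.

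Among inner membrane proteases and scaffolds, 7 of 10 were above 0, beside 46.2% of all genes, and the median was 0.12. At least 0.32 higher were 2 of the 10, or 20%, beside 11.8% of all genes. Of genes averaging 5 CPM or more, as all 10 did, 8.26% were that much higher. This is a description of a short list. LONP1, the matrix protease, had 4248 counts in the control and 4133 in the knockdown library, a log2 ratio of 0.42 (0.36 to 0.48). AFG3L2, a protease subunit of the inner membrane named after its values were seen, had 1673 and 1594 (0.39, 0.29 to 0.49). STOML2, a scaffold that binds OPA1-processing proteases, was lowest with -0.08. The 3 genes of the list nearest to OPA1 in log2 ratio were SPG7, the partner of AFG3L2, with 0.08, PPP3CB, another calcineurin subunit, with 0.09, and SENP3, a SUMO protease, with 0.09. This likeness rests on 2 libraries only.

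The remaining roles had medians close to that of all genes. The 10 fission adaptors and helpers had a median log2 ratio of -0.07, from -0.30 for SLC25A46, an outer membrane protein, to 0.05 for SPIRE1, an actin nucleator. The 11 genes of MICOS, the complex that holds crista junctions, and its outer membrane partners had a median of 0.01, from -0.23 for MTX1 to 0.25 for SAMM50. The 5 genes of cardiolipin synthesis had a median of 0.00, with CRLS1, cardiolipin synthase, at -0.26 and TRIAP1 at 0.37.

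Markers of mitochondrial content were given beside these values. The 11 nuclear genes had a median log2 ratio of 0.04, and TOMM70, an import receptor, was lowest with -0.24. TOMM22, the central receptor of the outer membrane translocase, stood apart. It had 609 counts in the control and 1121 in the knockdown library, or 30.6 and 77.2 CPM, a log2 ratio of 1.32 (1.19 to 1.48). The 37 genes of the mitochondrial genome took 4.45% of all counts in the control and 4.82% in the knockdown library. The part of mitochondrial content in the differences above was not tested.

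**Figure D5:**
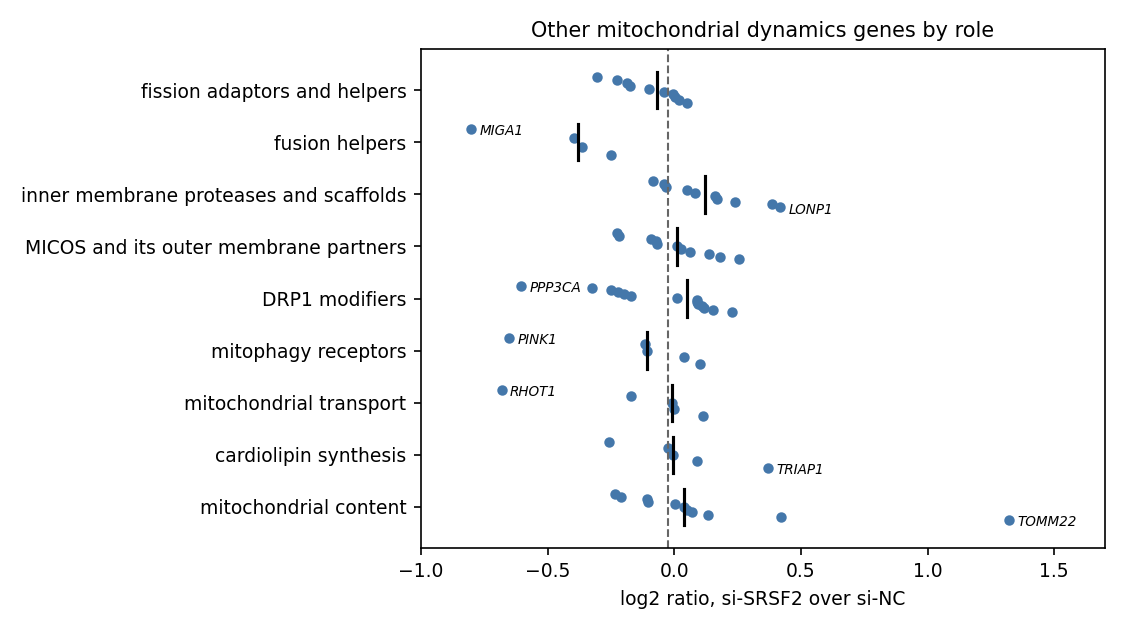
Log2 ratio of the knockdown over the control library for the 75 genes of the wider list, 1 point per gene, by role, with the median of each role as a vertical bar and the median of all tested genes as a dashed line. The 4 fusion helpers all lie below 0, with MIGA1 at -0.80, and TOMM22 lies at 1.32.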

How the data were processed

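mRNA of RKO cells was sequenced as paired-end reads from strand-specific libraries, 1 for si-NC and 1 for si-SRSF2. The authors aligned clean reads with HISAT2 (version 2.0.4 in the submitters' processing notes) to GRCh38 and counted them per gene with HTSeq; they deposited raw counts, without normalization. From these, CPM were computed with TMM factors from edgeR 4.0.16 under R 4.3.3. With 1 library per group no test was run across genes. A count of 0 allows up to 3 counts, or 0.151 CPM (si-NC) and 0.207 CPM (si-SRSF2), and all intervals cover counting error only. TPM used canonical transcript lengths of GENCODE release 44, which 11842 (93.8%) of the tested genes had. Exon sequences were read from GRCh38 with pysam 0.24.0, while primers and the siRNA were copied from the study's supplementary tables. Of each transcript, every 10th 31-mer was looked up in the genome. Intervals used SciPy 1.17.1. Only the Clopper-Pearson intervals were run on simulated data, which were Poisson counts and so held no variation between libraries.

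The members and lists were chosen with earlier results of these data known. Genes named beyond the 9 were those of the wider list with a mean of at least 5 CPM that were past 1.5-fold, were highest or lowest in their role, or were nearest to OPA1, and overlapping genes with at least 10 counts. BNIP3, AFG3L2, PLD6 and MSTO1 were named outside this rule, after their values were seen. As alternatives, libraries were scaled by total, by upper quartile and by DESeq2 1.42.0; the pseudocount was set to 0.1 or 2 CPM, and the filter was dropped or raised to 5 CPM. Further ones were scaling without mitochondrial genes and the 20 most abundant genes, other transcript lengths, and flanking introns in the motif search. Some genes that this rule names are not reported here.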

Additional observations from a re-analysis of the deposited data

How the results depend on the processing

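Leaving out a replicate was not possible with 1 library per group. No paired analysis was possible because only 1 library stood on each side. The log2 ratio of each of the 9 genes kept its sign and stayed inside its counting interval under the 6 other scalings and pseudocounts, with a largest shift of 0.02. The 2 filter settings cannot change the ratio of a gene that passes. OPA1 ranged from 0.08 to 0.11, MFN1 from 0.36 to 0.39, DNM1L from -0.17 to -0.14 and MIEF1 from -0.21 to -0.19, and MFN1 stayed the only one past 0.32 in either direction. SRSF2, whose alternatives were added after seeing the data, ranged from -1.003 to -0.973. Over all genes, 1495 were higher by at least 0.32 and 1676 lower. With upper-quartile factors these were 1627 and 1484, so that higher genes were then the more frequent. Without a filter these were 3577 and 2931, and at a minimum of 5 CPM they were 867 and 1187, or 8.26% and 11.3% of 10492 genes, since the filter sets which genes are counted. With all annotated exons as the length, 7 genes in si-NC and 6 in si-SRSF2 took another rank by level. The sums and shares with that length were added after seeing the data. With 50 intron bases on each side, the motif count at OPA1 exon 5 was 2 instead of 1. Of coding exons of the same length with such flanks, 85.9% held at least as many, and the median was 6. Depth limits OMA1 most, with 278 and 214 counts.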
